A study of Sparus aurata with 30 samples.

Results

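Of the 25722 genes counted in Sparus aurata, the gilthead sea bream raised in Mediterranean aquaculture, 81 carried the symbol of a chaperone, of a co-chaperone or of a component of the unfolded protein response. They were taken by symbol and by nothing else. The symbols were those of the heat shock proteins (hspa, hspb, hspd and hsp90), the J-domain proteins (dnaja, dnajb and dnajc), the protein disulfide isomerases (pdia), the chaperonin subunits (cct and tcp1), the BAG proteins and the heat shock factors. To these came canx, xbp1, atf6, atf6b, ern1, edem1, sel1l, hyou1, creld2 and sdf2l1. Fish were fed a diet in which brewer's spent dry yeast (SDY) made up 30% and took the place of plant protein (31.4%) and fish meal (10%), or a control diet without that replacement. RNA with a poly(A) tail was sequenced from liver, intestine and head kidney, where fish make blood cells and mount immune responses. The 6 groups are liver SDY, liver control, intestine SDY, intestine control, head kidney SDY and head kidney control, with 5 libraries each, of which 3 were used in head kidney control. The title of the series puts its question as one of immunity. Strain, age and length of feeding are not given in the labels used here. The labels give randomly picked specimens without their tanks, and p-values therefore describe variation among specimens alone. The labels also do not say whether libraries of different tissues came from the same fish.

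Chaperones bind unfolded stretches of other proteins and keep them from clumping until they fold. In the endoplasmic reticulum (ER), which folds proteins meant for secretion, unfolded protein is sensed by ern1 (IRE1), atf6 and eif2ak3 (PERK), and these raise the genes of ER chaperones and of the degradation of misfolded ER proteins. This signalling is the unfolded protein response, and liver, which secretes most plasma proteins, is known for a large ER. Heat shock factors do the same for the chaperones of the cytosol, and mitochondria have a set of their own.

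By known role, 15 of the 81 genes serve folding in the ER, 2 the degradation of ER proteins and 4 are sensors or factors of the unfolded protein response. Each gene was put in 1 list. The mitochondrial list has 5 genes, hspa9, hspd1, dnaja3, dnajc15 and dnajc19, while dnajc11 and dnajc30, whose proteins are also mitochondrial, are counted with the J-domain genes, as is dnajb12 of the ER membrane. Other J-domain genes may have proteins in these places too, so neither the ER lists nor the mitochondrial list need be complete. Counts by list hold for the listed genes only. A further 8 are subunits of the chaperonin CCT, 1 is a cytosolic HSP90 and 4 are of the HSP70 and HSP110 families. The largest group is 27 J-domain proteins, which hand clients to HSP70, followed by 6 BAG proteins, which make HSP70 release nucleotide. There are 4 small heat shock proteins and 4 heat shock factors, and hspb11 stands alone. No row had the symbol hspa8, hsp90aa1, hsph1, hspe1, calr, manf, herpud1 or dnajb9, and copies of these under an unnamed LOC identifier are not part of the set. The genes lie on 24 numbered chromosomes of assembly fSpaAur1.1, apart from 2 on none. The span of 13 overlaps that of another gene, among them xbp1 (ccdc60), pdia6, edem1, cct2, dnajb5, dnajc7 (nkiras2), dnajc2 (pmpcb), dnajc28 and cct4 (pus10). Because reads over an overlap were counted for both genes and strand was not used, the counts of these 13 are uncertain.

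Total counts ran from 9276705 (SDY replicate 3 of liver) to 20580440 in the 28 libraries used. Head kidney control replicate 1 (926 counts) and replicate 3 were left out, as the rule for the gene set asks, and 195530 of the 16459444 counts of replicate 3 lay in 3 hepatocyte genes. CPM here are counts scaled to 1 common library size with TMM factors over the 28 libraries. These factors were 0.4151 to 0.6255 in liver, 1.075 to 1.488 in intestine and 1.437 to 1.697 in head kidney. Differences between tissues rest on them. Per total counts alone, liver would stand lower, and hsp90ab1, hspa9 and cct3, among others, would not be higher in liver than in head kidney. Nor would canx, ern1, the CCT subunits, bag1, bag4 and bag6, among others, be higher in liver than in intestine. Markers of the labelled tissue were present. Hepatocyte genes (3 found of 12) held 24000 to 57030 CPM in liver. Enterocyte genes (2 found of 10) held 768 to 1464 CPM in intestine, but also 120 to 427 CPM in liver. The liver sum was mostly mttp (103.2 to 418.6 CPM), while slc5a1 held 8.47 to 33.1 CPM there. In head kidney, erythroid genes (3 found of 9) held 196 to 999 CPM, against 26.8 to 206 CPM in liver. Nearly all of the head kidney sum was alas2 (195.2 to 996.4 CPM), with gata1 at most 3.11 CPM. epb41 held 0 to 0.1705 CPM in head kidney, against 0.0957 to 0.2843 CPM in intestine. B and plasma cell genes (4 found of 10) held 332 to 547 CPM in head kidney, against 29.1 to 87.1 CPM in intestine. All liver libraries also held cpb1, the only pancreatic enzyme of 14 searched that was found by symbol, at 6385 to 35670 CPM. Counts cover whole gene spans, so levels are compared between samples for a gene, never between genes.

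**Figure D1:**
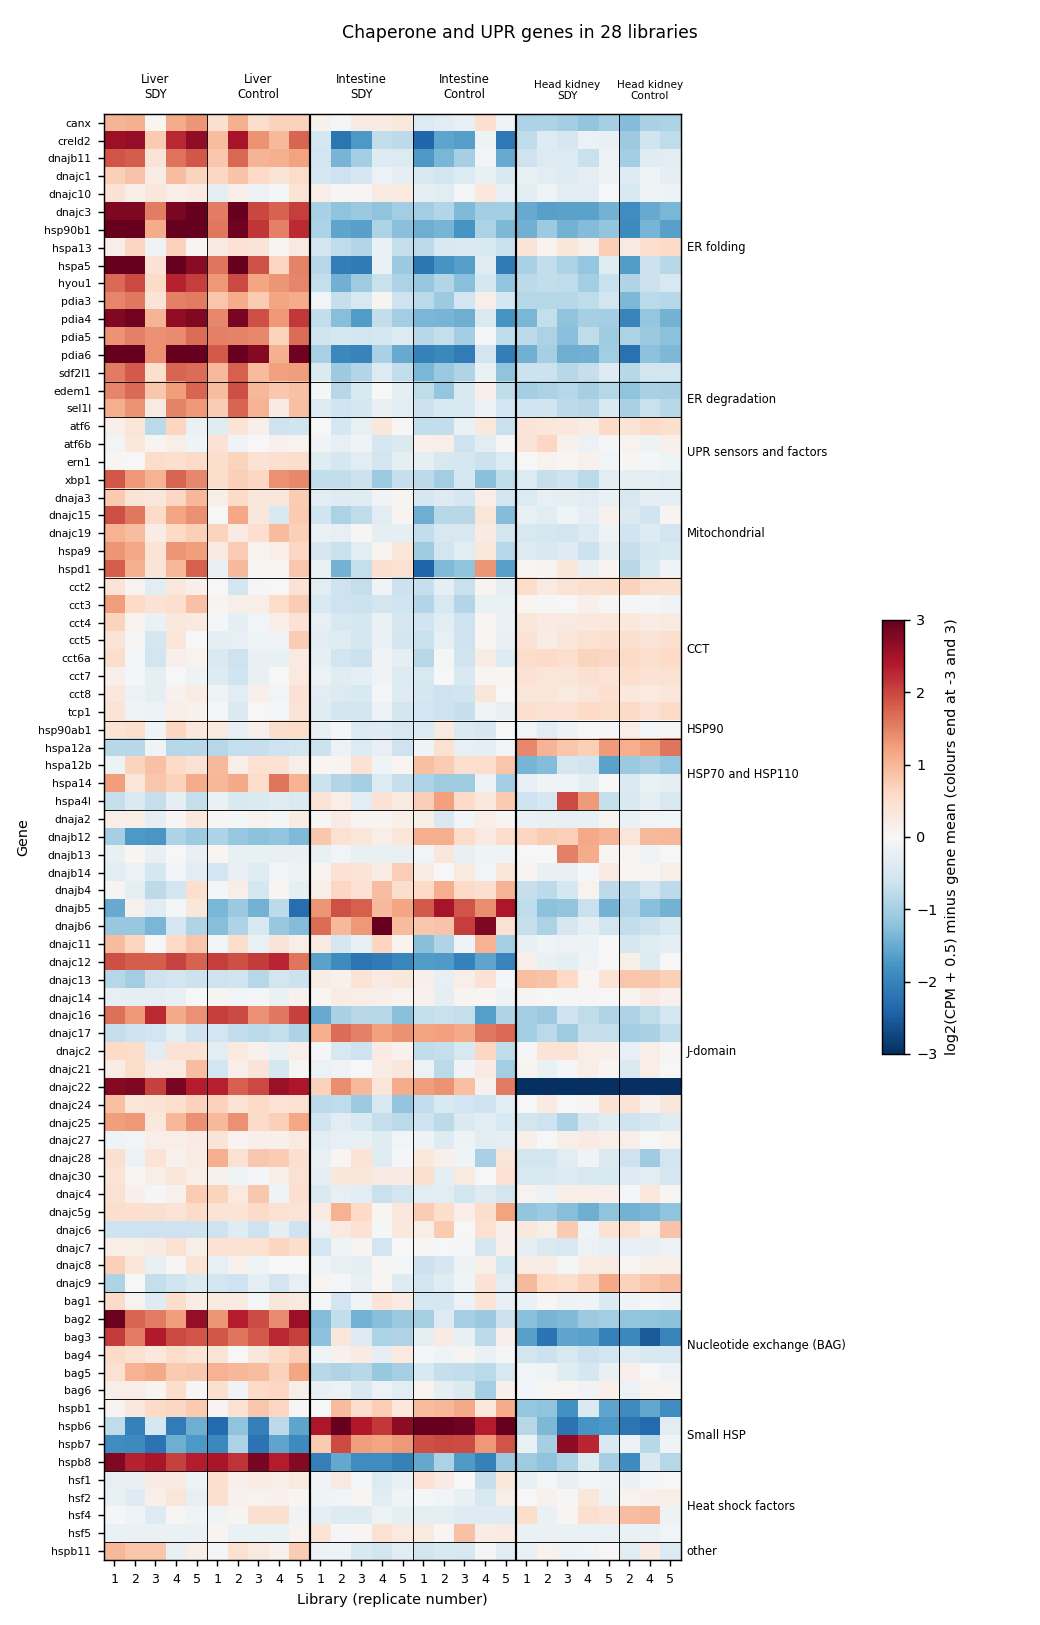
Each row is 1 of the 81 genes, grouped by role, and each column 1 of the 28 libraries. Colour is log2(CPM + 0.5) minus the mean of the gene over all libraries, red above and blue below, ending at -3 and 3. The ER folding rows are red across liver, the CCT rows are red across most of head kidney, and hspb6 and hspb7 are red in intestine, hspb7 also in 2 head kidney SDY libraries.

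Most of these genes differed between tissues, and more of them were high in liver than elsewhere. The mean was highest in liver for 49 of the 81 genes, in head kidney for 20 and in intestine for 12. The tissue of the highest mean was not counted over all genes. Of 79 genes tested with edgeR's quasi-likelihood test across tissues, 52 were higher and 14 lower in liver than in intestine at an adjusted p (Benjamini-Hochberg, over all genes tested) under 0.05. Over all 20296 genes tested, 78.8% were called in this contrast, 35.4% as higher and 43.4% as lower, so the number called is near that of any gene while the direction is not split in the same way. Against head kidney, 49 were higher and 16 lower in liver, where 75.0% of all genes were called (37.5% higher and 37.5% lower). Intestine against head kidney gave 21 higher and 26 lower, where 73.6% were called (38.5% higher and 35.0% lower). The counts of genes higher in liver rest in part on the TMM factors. In whole tissue, more cells of a type and more RNA per cell cannot be told apart.

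Nearly all of the 15 genes listed for ER folding were higher in liver. There, 14 of 15 were higher than in intestine and 14 of 15 higher than in head kidney. The median log2 fold change (the base 2 logarithm of the ratio) was 2.28 against intestine and 2.39 against head kidney, where all genes tested had medians of -0.18 and -0.03. The exceptions were dnajc10, an ER reductase that did not pass against intestine (0.13 ± 0.09 ± SE, adjusted p = 0.195 in edgeR), and hspa13, an HSP70-like ATPase that did not pass against head kidney (-0.10 ± 0.12, adjusted p = 0.457). Summed over the 15 genes, liver libraries held 4988 to 19090 CPM, intestine 1477 to 2881 CPM and head kidney 1169 to 1914 CPM. No library of the other tissues reached the lowest liver. All liver libraries held cpb1, and the part of pancreatic tissue in these levels was not tested.

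hspa5 (BiP, chromosome 12, 17356554 to 17360421, plus strand), the main HSP70 of the ER, ran from 548 to 5108 CPM (median 2081) in liver, 89.9 to 352 CPM (median 122) in intestine and 125 to 313 CPM (median 218) in head kidney. Its log2 fold change was 3.71 ± 0.38 against intestine (adjusted p = 2.44e-09, edgeR) and 3.35 ± 0.43 against head kidney (adjusted p = 1.33e-07). The lowest liver library still lay above every library of the other tissues.

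hsp90b1 (GRP94, chromosome 8, 15459039 to 15466389, minus strand), the HSP90 of the ER, ran from 1047 to 4860 CPM (median 2988) in liver, 143 to 258 CPM (median 187) in intestine and 128 to 229.5 CPM (median 183) in head kidney. It was 3.91 ± 0.25 higher on the log2 scale than in intestine (adjusted p = 1.95e-13, edgeR) and 4.07 ± 0.29 higher than in head kidney (adjusted p = 2.04e-12). Liver and the other tissues did not overlap.

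pdia6, a protein disulfide isomerase that forms and rearranges disulfide bonds, differed most between liver and intestine among the genes higher in liver, at 4.45 ± 0.33 (adjusted p = 5.92e-12, edgeR). It held 396 to 2774 CPM (median 1631) in liver, against 44 to 127 CPM (median 49) in intestine and 39.4 to 94.3 CPM (median 71.2) in head kidney. Its span overlaps an unnamed gene. The related pdia4, pdia5 and pdia3 were higher in liver than in intestine by 3.43, 2.03 and 1.60 (log2), with adjusted p at or below 3.48e-09 in edgeR.

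dnajc3 (p58IPK), an ER J-domain protein that also restrains PERK, was higher in liver than in head kidney by 4.03 ± 0.21 (adjusted p = 4.29e-15, edgeR), with 172 to 503 CPM (median 329) in liver and 15.8 to 22.3 CPM (median 19.5) in head kidney. creld2, an ER protein induced by ER stress, stood 3.20 ± 0.31 higher in liver than in intestine (adjusted p = 6.71e-10). canx (calnexin), the lectin chaperone of the ER membrane, differed less, by 0.80 ± 0.14 (adjusted p = 1.47e-05). canx held 553 to 1345 CPM (median 968) in liver, 401 to 754 CPM (median 548) in intestine and 216 to 282 CPM (median 269.8) in head kidney. It was also higher in intestine than in head kidney, by 1.09 ± 0.16 (adjusted p = 8.86e-07), a contrast in which 5 of 15 ER folding genes were higher and 1 lower.

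Other ER chaperones had the same order of liver over the rest. hyou1, the ER member of the HSP110 family, held 389 to 1299 CPM (median 788) in liver, 96.2 to 182 CPM (median 131) in intestine and 129 to 188 CPM (median 156) in head kidney (2.61 ± 0.17 against intestine, adjusted p = 5.56e-13, edgeR). pdia4 held 417 to 1536 CPM (median 1091) in liver, 60.1 to 151 CPM (median 82) in intestine and 51.9 to 125 CPM (median 89.6) in head kidney. dnajb11 (ERdj3), a J-domain partner of hspa5, held 89 to 255 CPM (median 186) in liver, 20.4 to 64.7 CPM (median 33.9) in intestine and 33.5 to 61.5 CPM (median 51.1) in head kidney (2.28 ± 0.21, adjusted p = 4.76e-10). sdf2l1, which joins dnajb11 in a complex, had a log2 fold change of 2.21 ± 0.17 against intestine and 2.05 ± 0.19 against head kidney (adjusted p = 7.93e-12 and 2.64e-10).

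Both genes of ER degradation were higher in liver, though the span of edem1 overlaps an unnamed gene. edem1, a lectin that takes misfolded glycoproteins out of folding, had log2 fold changes of 1.76 ± 0.17 against intestine and 2.36 ± 0.20 against head kidney (adjusted p = 7.55e-10 and 3.85e-11, edgeR). sel1l, the adaptor of the ubiquitin ligase of the ER membrane, had 1.54 ± 0.15 and 1.84 ± 0.17 in these contrasts (adjusted p = 7.53e-10 and 2.34e-10).

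Of the sensors and factors, 3 of 4 were higher in liver than in intestine. xbp1, the transcription factor made active by ern1, held 784 to 1958 CPM (median 1374) in liver, 225 to 373 CPM (median 321) in intestine and 309 to 446 CPM (median 414) in head kidney. It was 2.07 ± 0.14 higher in liver than in intestine (adjusted p = 1.48e-12, edgeR). ern1 was higher in liver by 0.89 ± 0.07 against intestine and 0.44 ± 0.08 against head kidney (adjusted p = 5.82e-11 and 2.35e-05). atf6 was not told apart between liver and intestine (0.19 ± 0.17, adjusted p = 0.322) and was lower in liver than in head kidney (-0.45 ± 0.19, adjusted p = 0.0327). All 4 sensors and factors were lower in intestine than in head kidney, with log2 fold changes of -0.64 to -0.32. Unspliced and spliced xbp1 cannot be separated in gene counts.

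**Figure D2:**
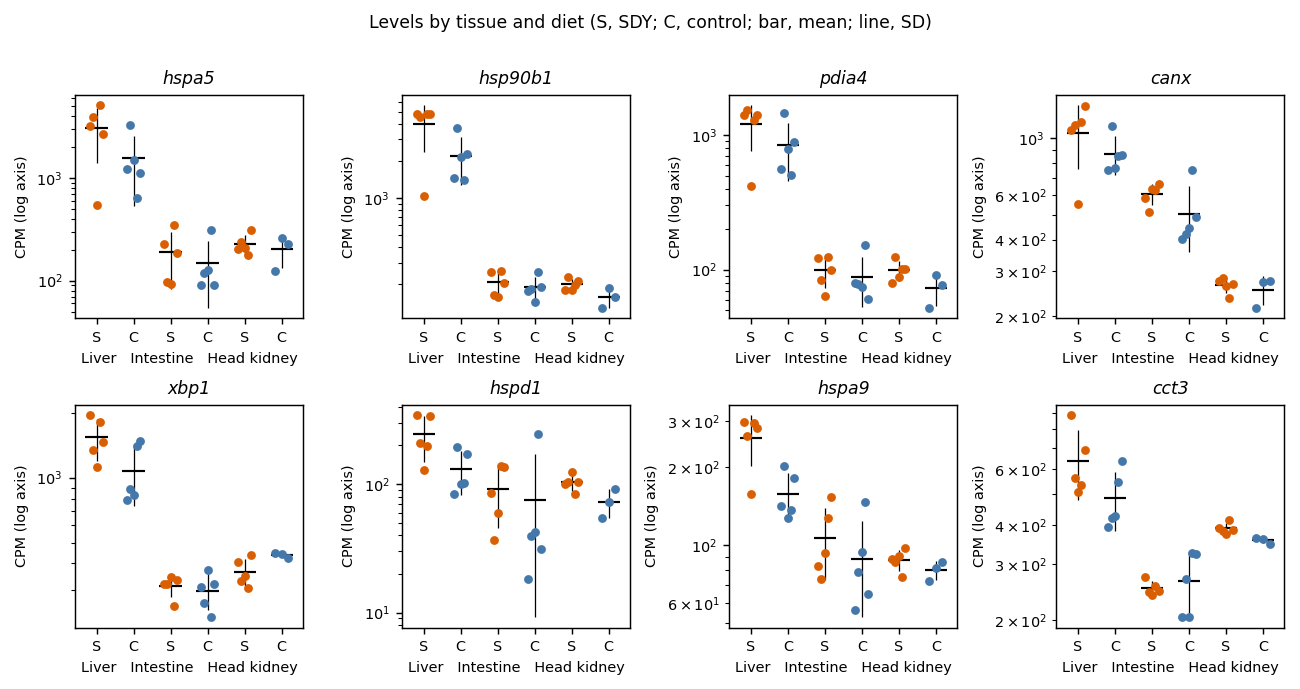
CPM on a log axis for 8 of the genes in each tissue, with SDY libraries (S, orange) left of control libraries (C, blue), the mean as a bar and 1 SD as a line. hspa5, hsp90b1 and pdia4 lie higher in each liver library than in any library of the other tissues, and the ranges of hspd1 overlap.

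All 5 genes of the mitochondrial list were higher in liver than in intestine (median 1.06) and than in head kidney (median 1.18), and none was called between intestine and head kidney by edgeR, where 0 of 5 had an unadjusted p under 0.05 and DESeq2 called 0. The directions of liver against head kidney rest on the TMM factors, as do those against intestine for all but dnajc15. hspd1 (HSP60, chromosome 9, 5554637 to 5561310, plus strand), the chaperonin of the mitochondrial matrix, held 83.8 to 346 CPM (median 183) in liver, 18.3 to 246 CPM (median 50.9) in intestine and 54.9 to 125 CPM (median 96.4) in head kidney. These ranges overlapped, and its log2 fold change of 1.11 ± 0.36 against intestine passed with adjusted p = 0.00654 (edgeR). hspa9 (mortalin, chromosome 18, 8100058 to 8114828, plus strand), the HSP70 that pulls proteins into mitochondria, was higher in liver than in head kidney by 1.27 ± 0.18 (adjusted p = 6.26e-07). Of the mitochondrial genes named above as outside the list, dnajc11 was higher in liver than in head kidney by 0.68 ± 0.24 (adjusted p = 0.0146). It did not pass against intestine (0.45 ± 0.22, adjusted p = 0.0644). dnajc30 was higher than in head kidney in both liver (0.67 ± 0.12, adjusted p = 1.92e-05) and intestine (0.68 ± 0.12, adjusted p = 1.5e-05), and did not pass between liver and intestine (-0.01 ± 0.11, adjusted p = 0.925).

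CCT, the chaperonin that folds actin and tubulin, had another order. The mean was highest in head kidney for 7 of its 8 subunits. All 8 were lower in intestine than in head kidney (median -0.71), and 6 of 8 were lower in liver than in head kidney (median -0.40) while 6 of 8 were higher in liver than in intestine (median 0.45). Against this order ran cct3, higher in liver than in head kidney by 0.57 ± 0.13 (adjusted p = 0.000296, edgeR). The other subunits against head kidney ran in liver from -0.63 to -0.12, and cct4 did not pass (adjusted p = 0.361). tcp1, the alpha subunit, held 254 to 456 CPM (median 337) in liver, 212 to 319 CPM (median 233) in intestine and 467 to 515 CPM (median 491) in head kidney. The sum of the 8 genes was 2033 to 3797 CPM in liver, 1623 to 2641 CPM in intestine and 3192 to 3496 CPM in head kidney. Intestine and head kidney did not overlap in this sum, and liver overlapped both. With the 2 head kidney libraries that were left out added back, 0 of the 8 subunits were called lower in liver.

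hsp90ab1, the constitutive cytosolic HSP90, held 2852 to 5279 CPM (median 4353) in liver, 2398 to 4090 CPM (median 2582) in intestine and 2683 to 3901 CPM (median 3270) in head kidney. It passed against intestine (0.57 ± 0.15, adjusted p = 0.00124, edgeR) and lay just under the threshold against head kidney (0.36 ± 0.16, adjusted p = 0.04999). Its counts before scaling were 15350 to 62659 in liver and 72296 to 102262 in head kidney, so this direction rests on the TMM factors. Among the HSP70 and HSP110 families, hspa12a, an atypical HSP70, was lower in liver than in head kidney, at -2.04 ± 0.15 (adjusted p = 2.86e-12) and lower in intestine than in head kidney, at -1.53 ± 0.14 (adjusted p = 5.34e-10). hspa12b (chromosome 10, 35387809 to 35406111, minus strand), known in mammals from the lining of blood vessels, was higher in liver and in intestine than in head kidney, by 2.12 ± 0.25 and 2.01 ± 0.25 (adjusted p = 2.82e-08 and 6.87e-08). It lies 2437 bases from cct7, its neighbour on chromosome 10.

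J-domain proteins were divided between the tissues. The mean was highest in liver for 13 of the 27, in intestine for 7 and in head kidney for 7. dnajc12, which in humans binds the aromatic amino acid hydroxylases, held 23 to 37.1 CPM (median 28.9) in liver, 1.2 to 2.09 CPM (median 1.53) in intestine and 5.25 to 8.22 CPM (median 6.93) in head kidney. The log2 fold change was 4.16 ± 0.12 for liver against intestine (adjusted p = 1.2e-19, edgeR) and -2.07 ± 0.12 for intestine against head kidney (adjusted p = 7.26e-14). The ranges of the 3 tissues did not overlap.

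dnajc22 was hardly counted in head kidney. It had 4509 counts over 10 liver libraries, 4326 over 10 intestine libraries and 2 over 8 head kidney libraries. The ratio to head kidney was 5348 for liver (95% interval 1480 to 44174) and 1917 for intestine (530 to 15831), exact binomial intervals that cover counting error only. Its adjusted p was 5.51e-17 and 7.59e-16 in edgeR. dnajc6 (auxilin), which strips clathrin from vesicles, was the reverse, with 98 counts in intestine, 108 in head kidney and 2 in liver. The ratio to liver was 18.3 for intestine (4.93 to 153) and 22.8 for head kidney (6.15 to 190).

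Several J-domain genes were highest in intestine. dnajb5 held 0.112 to 3.26 CPM (median 1.05) in liver, 5.4 to 16.1 CPM (median 10.1) in intestine and 0.617 to 1.38 CPM (median 0.799) in head kidney, and intestine overlapped neither. It was lower in liver than in intestine, at -2.97 ± 0.28 (adjusted p = 6.18e-10, edgeR) and higher in intestine than in head kidney by 3.42 ± 0.32 (adjusted p = 4.68e-10). dnajb6, which keeps aggregation-prone proteins soluble, was lower in liver than in intestine, at -2.83 ± 0.30 (adjusted p = 4.72e-09), with 19.6 to 123 CPM (median 31.7) in intestine. dnajb4 was higher in intestine than in head kidney by 3.73 ± 0.65 (adjusted p = 1.35e-05), on at most 29 counts in any library. dnajb12, an ER membrane J-protein, was lower in liver than in head kidney, at -2.77 ± 0.22 (adjusted p = 1.23e-11), and dnajc13, which acts on endosomes, at -1.40 ± 0.11 (adjusted p = 8.46e-12). dnajc24 was lower in intestine than in head kidney, at -1.05 ± 0.12 and hspa13 at -1.01 ± 0.12 (adjusted p = 3.14e-08 and 3.99e-08).

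All 6 BAG genes were higher in liver than in intestine, and 5 of 6 were higher than in head kidney. bag3, which works with small heat shock proteins in the clearance of damaged proteins, had the greatest of these differences, 4.23 ± 0.25 against head kidney (adjusted p = 3.93e-14, edgeR), with 27 to 48.6 CPM (median 36.1) in liver and 1.17 to 2.66 CPM (median 1.96) in head kidney. It was also higher in intestine than in head kidney, by 1.85 ± 0.22 (adjusted p = 4.21e-08). The 3 tissues did not overlap in bag3.

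The 4 small heat shock proteins, which hold unfolded proteins without using ATP, split by tissue. hspb8, the partner of bag3, was highest in liver, with 62.8 to 109 CPM (median 79.9) in liver, 3.18 to 7.36 CPM (median 3.93) in intestine and 3.62 to 11 CPM (median 7.31) in head kidney. It was 4.26 ± 0.19 higher in liver than in intestine (adjusted p = 1.76e-16, edgeR). hspb6 and hspb7, known from muscle in mammals, were lower in liver than in intestine, at -5.27 ± 0.57 and -4.91 ± 0.57 (adjusted p = 6.82e-09 and 2.52e-08). hspb6 held 10.4 to 24.3 CPM (median 16.9) in intestine and at most 1.48 CPM in any library of the other tissues. hspb6 was higher in intestine than in head kidney by 5.25 ± 0.62 (adjusted p = 4.01e-08), and hspb1 (HSP27) by 2.48 ± 0.21 (adjusted p = 1.31e-10). Smooth muscle genes, 7 found of 9 chosen after these values were seen, summed to 916 to 1852 CPM in intestine, against 64.2 to 129 CPM in liver and 39.6 to 135 CPM in head kidney. Their part in the small heat shock protein levels was not tested.

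Among heat shock factors, hsf1, the main activator of the heat shock response, was not told apart between liver and intestine (0.12 ± 0.11, adjusted p = 0.316, edgeR) or between liver and head kidney (0.25 ± 0.12, adjusted p = 0.0734). hsf4 was lower in intestine than in head kidney, at -3.72 ± 0.55 (adjusted p = 1.36e-06), with at most 19 counts in any library. hsf5 and dnajb13 had too few counts to be tested across tissues.

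**Figure D3:**
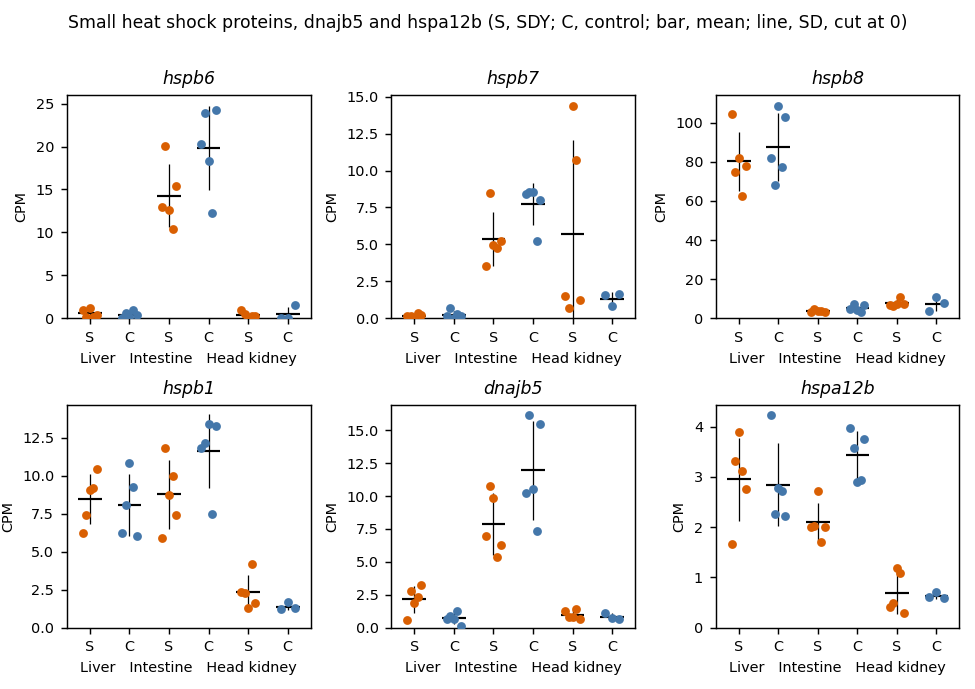
CPM of the 4 small heat shock proteins, dnajb5 and hspa12b in each tissue, with SDY libraries (S, orange) left of control libraries (C, blue), the mean as a bar and 1 SD as a line cut at 0. hspb6 and dnajb5 are highest in intestine and hspb8 in liver, and 2 head kidney SDY libraries stand apart in hspb7.

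Other genes of protein folding were also mostly higher in liver. Of 71 found of 85 listed, among them translocon, glycosylation and ER degradation genes, 60 were higher and 1 lower in liver than in intestine, and 56 were higher and 2 lower than in head kidney. Of all genes tested, 35.4% were higher and 43.4% lower against intestine, and 37.5% and 37.5% against head kidney. ssr2, a subunit of the complex at the translocon, was higher in liver than in intestine by 2.65 ± 0.11 (adjusted p = 3.66e-17, edgeR), and lman1, a cargo receptor that carries glycoproteins out of the ER, than in head kidney by 3.83 ± 0.17 (adjusted p = 2.88e-16). ero1a, an oxidase that recharges disulfide isomerases, was the 1 gene lower than in intestine, at -1.44 ± 0.26 (adjusted p = 1.6e-05). Its relative ero1b was higher, by 2.20 ± 0.11 (adjusted p = 1.29e-15).

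In liver, SDY was compared with control over 5 libraries each. None of the 70 genes tested passed (0 of 15010 genes, 0% of all genes in edgeR), and 7 of 70 had an unadjusted p under 0.05, against 10.7% of all genes. With DESeq2, 1 gene of the set was called, hspa9 (log2 fold change 0.73, adjusted p = 0.0498), beside 103 genes in all. Of the 70 fold changes, 52 were above 0, against 49.5% of all genes, and the median was 0.10 against 0.00 for all genes. Among ER folding genes 15 of 15 were above 0 with a median of 0.35, among genes of the mitochondrial list 5 of 5 with a median of 0.72, and among CCT subunits 8 of 8 with a median of 0.13. Genes of a list moved together across libraries, so such counts are not counts of independent results. SDY replicate 3 was the lowest SDY liver for 13 of 15 ER folding, 5 of 5 mitochondrial and 8 of 8 CCT genes. Single libraries moved the CCT median, to 0.025 with 6 of 8 above 0 without control replicate 2, 0.066 with 6 of 8 without SDY replicate 1, 0.21 without SDY replicate 3 and 0.286 without control replicate 5. The median of the 70 genes was 0.185 without SDY replicate 3 and 0.162 without control replicate 5. J-domain genes were divided, with 12 of 22 above 0.

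hspa9 had the smallest p. It held 298, 263, 158, 295 and 281 CPM in SDY livers, against 141, 201, 127, 136 and 181 CPM in control livers (replicates 1 to 5 in each). Of the SDY livers, 4 of 5 lay above every control liver, and replicate 3 lay among the controls. The log2 fold change was 0.71 ± 0.19 (unadjusted p = 0.00323, adjusted p = 0.343, edgeR).

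hspd1 held 346, 211, 129, 196 and 341 CPM in SDY livers, against 83.8, 193, 101, 102 and 173 CPM in control livers. The log2 fold change was 0.90 ± 0.31 (adjusted p = 0.381, edgeR). dnajc15, a J-protein of the mitochondrial import motor, held 31.1, 24.4, 11.9, 18.4 and 21.1 CPM in SDY livers, against 7.83, 18.1, 10, 5.57 and 13.8 CPM in control livers (0.95 ± 0.32, adjusted p = 0.378). In both, replicate 3 was the lowest SDY liver, and the other 4 lay above every control.

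hsp90b1 held 4789, 4576, 1047, 4860 and 4805 CPM in SDY livers, against 1458, 3693, 2159, 1394 and 2282 CPM in control livers. The log2 fold change was 0.86 ± 0.40 (adjusted p = 0.47, edgeR). Replicate 3 was the lowest of all 10 livers, and the other 4 SDY livers lay above every control. hspa5 held 3190, 3962, 548, 5108 and 2657 CPM in SDY livers, against 1224, 3313, 1505, 635 and 1130 CPM in control livers, and its groups overlapped (0.97 ± 0.53, adjusted p = 0.534). xbp1 held 1958, 1341, 1121, 1807 and 1465 CPM in SDY livers, against 784, 886, 828, 1407 and 1479 CPM in control livers (0.51 ± 0.24, adjusted p = 0.468), and overlapped likewise.

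Further genes with small unadjusted p in liver were J-domain genes. dnajc11, of the mitochondrial membranes, and dnajc21, of ribosome assembly, had fold changes of 0.45 ± 0.19 and 0.52 ± 0.22 on the log2 scale (adjusted p = 0.429 and 0.439, edgeR). dnajc8, a partner of the splicing machinery, had 0.34 ± 0.16 (adjusted p = 0.478). Below 0 were dnajc28 at -0.56 ± 0.21 and dnajc7, which links HSP70 with HSP90, at -0.26 ± 0.11 (adjusted p = 0.391 and 0.418). No gene of the set had SDY and control livers without overlap, where 0.533% of all genes were higher and 0.859% lower without overlap.

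The sum of the ER folding genes differed widely among livers. It was 17430, 17640, 4988, 19090 and 16920 CPM in SDY livers, against 7287, 15550, 9111, 6813 and 9804 CPM in control livers. SDY replicate 3 held the lowest value within its group for 13 of the 15 genes, and control replicate 2 the highest within its group for 12. SDY replicate 3 was also the library with the fewest counts, and its cpb1, a pancreatic enzyme gene, was the highest of the 10 livers. cpb1 held 30620, 9135, 35670, 13340 and 16700 CPM in SDY livers, against 6385, 18650, 12460, 29340 and 17200 CPM in control livers. The part of depth or of pancreatic tissue in the ER values was not tested. Without SDY replicate 3 the median of the 15 genes was 0.55, and 0 of the 70 genes passed.

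**Figure D4:**
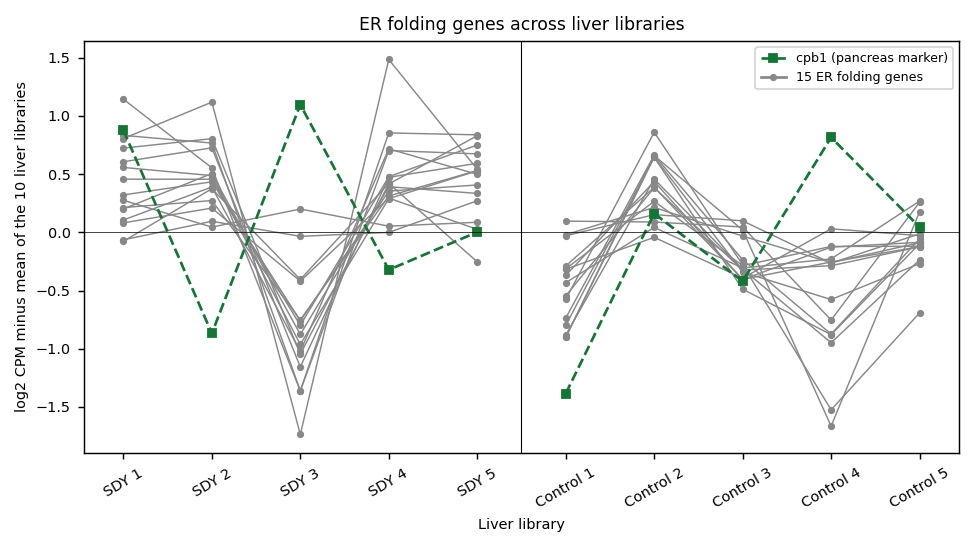
log2 CPM minus the mean of the 10 liver libraries for the 15 ER folding genes (grey) and for cpb1, a pancreas marker (green, dashed), with SDY libraries left of control libraries. Most ER genes dip in SDY replicate 3, where cpb1 is highest, and peak among controls in replicate 2.

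In intestine none of 76 genes tested passed (0% of 18221 genes in edgeR), 5 of 76 had an unadjusted p under 0.05 against 6.50% of all genes, and DESeq2 called 0 of the set and 55 genes in all. ER folding genes again lay mostly above 0, 13 of 15 with a median of 0.18, and genes of the mitochondrial list 5 of 5 with a median of 0.20, against a median of -0.01 and 48.1% above 0 for all genes. CCT subunits were 0 of 8 above 0 (median -0.08) and small heat shock proteins 0 of 4 (median -0.49). Single libraries moved these medians. That of the small heat shock proteins was -0.61 without control replicate 4 and -0.6 without SDY replicate 2. It was -0.387 without control replicate 2 or 5, with 0 of 4 above 0 in each of these. The ER folding median was 0.272 without SDY replicate 2, 0.059 with 11 of 15 above 0 without SDY replicate 4, 0.114 without control replicate 2, 0.09 without control replicate 3 and 0.418 without control replicate 4. The mitochondrial median was 0.331 without SDY replicate 2, 0.072 without SDY replicate 5, 0.083, 0.13 and 0.088 without control replicates 1, 3 and 5, and 0.531 without control replicate 4. The CCT median was -0.048 and -0.138 without SDY replicates 3 and 4, -0.144, -0.155 and -0.032 without control replicates 1, 3 and 5, and 0.041 with 7 of 8 above 0 without control replicate 4.

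hspa12b had the smallest p. It held 2.01, 2.03, 2.73, 1.71 and 2.01 CPM in SDY intestines, against 3.97, 3.58, 2.9, 2.94 and 3.75 CPM in control intestines. Every SDY value lay below every control value, as did those of bag5, and no gene of the set was higher without overlap. Of all genes, 0.637% were lower and 0.198% higher without overlap. The log2 fold change was -0.72 ± 0.18 (unadjusted p = 0.0023, adjusted p = 0.726, edgeR), on at most 90 counts in any library. bag5 had -0.32 ± 0.12 (adjusted p = 0.732), with 12.9, 12.3, 13, 10.3 and 11.4 CPM in SDY intestines, against 16.9, 14.3, 13.9, 13.1 and 16.5 CPM in control intestines.

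The small heat shock proteins had like fold changes in intestine, -0.48 ± 0.22 for hspb6, -0.53 ± 0.24 for hspb7, -0.50 ± 0.24 for hspb8 and -0.41 ± 0.22 for hspb1 (log2, adjusted p = 0.762 to 0.80, edgeR). hspb6 held 12.9, 20.0, 12.6, 10.4 and 15.4 CPM in SDY intestines, against 20.4, 23.9, 18.3, 12.2 and 24.3 CPM in control intestines, and the groups overlapped. dnajb5 had -0.61 ± 0.26 (adjusted p = 0.756), and hspa4l, of the HSP110 family, -0.94 ± 0.39 (adjusted p = 0.756). hspa12a and bag2 had -0.41 ± 0.20 and -0.39 ± 0.21 (adjusted p = 0.772 and 0.813). Smooth muscle genes summed to 916, 1616, 1175, 1506 and 1341 CPM in SDY intestines, against 1442, 1852, 1343, 1280 and 1675 CPM in control intestines. Their part in these fold changes was not tested.

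Control replicate 4 stood apart in intestine. Its ER folding sum was 2881 CPM, against 1477 to 1656 CPM in the other controls and 1620 to 2631 CPM in SDY intestines. SDY replicate 4 held the highest of the SDY sums, at 2631 CPM. Deviations of SDY and control replicate 4 from their groups correlated at 0.544, the highest of the same-numbered pairs. hspd1 held 85.3, 36.6, 59.7, 138 and 136 CPM in SDY intestines, against 18.3, 39.2, 42, 246 and 31.5 CPM in control intestines, with control replicate 4 the highest of the 10. Without that library, too, 0 genes of the set passed.

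**Figure D5:**
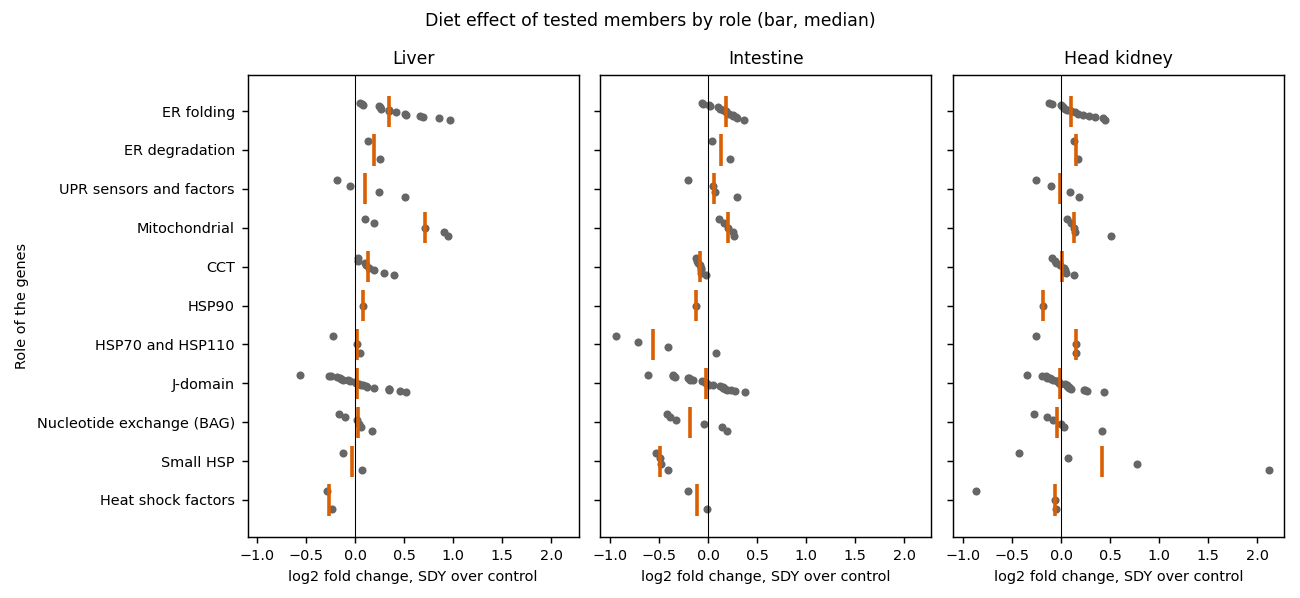
Log2 fold change of SDY over control for each tested gene except hspb11 (points) by role, in liver, intestine and head kidney, with the median as a bar. Points of ER folding genes and of the mitochondrial list lie mostly right of 0 in liver, and the small heat shock proteins lie left of 0 in intestine. None of these values passed the edgeR test.

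In head kidney, 5 SDY libraries were compared with 3 controls, and none of 76 genes passed (0.00583% of 17151 genes did in edgeR, 1 gene). An unadjusted p under 0.05 was found for 6 of 76 against 11.8% of all genes, and DESeq2 called 0 of the set and 248 genes in all. ER folding genes were 13 of 15 above 0 with a median of 0.10, and genes of the mitochondrial list 5 of 5 with a median of 0.13, where all genes had a median of 0.02 and 53.7% above 0. Without control replicate 2, 6 of 15 ER folding genes were above 0 with a median of -0.055, and the mitochondrial median was 0.066 with 4 of 5 above 0. Without SDY replicate 5, 9 of 15 ER folding genes were above 0 with a median of 0.05, and the mitochondrial median was 0.063. With control replicate 1 alone left out, 5 of 15 ER folding genes were above 0 (median -0.105) and 3 of 5 mitochondrial genes (median 0.061). With all head kidney libraries used, these were 6 of 15 (median -0.073) and 3 of 5 (median 0.069).

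dnajc11 had the smallest p in head kidney. It held 22, 23.6, 22.9, 23.3 and 25.9 CPM in SDY head kidneys, against 17.9, 19.9 and 21.2 CPM in control head kidneys, without overlap (0.26 ± 0.08, adjusted p = 0.404, edgeR). cct3 and dnajc28 were also higher and bag4 and dnajc14 lower without overlap, which makes 3 of 76 higher (3.81% of all genes) and 2 of 76 lower (3.45%). hspd1 held 101, 104, 125, 84.4 and 104 CPM in SDY head kidneys, against 54.9, 72 and 92.1 CPM in control head kidneys (0.51 ± 0.18, adjusted p = 0.404), and 1 SDY library lay among the controls. creld2, hsp90b1 and pdia4 had 0.43 ± 0.16, 0.35 ± 0.14 and 0.44 ± 0.21 on the log2 scale (adjusted p = 0.404, 0.404 and 0.437).

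xbp1 pointed the other way in head kidney, with 404, 332, 350, 309 and 436 CPM in SDY head kidneys, against 446, 445 and 425 CPM in control head kidneys (-0.26 ± 0.11, adjusted p = 0.407, edgeR). The groups overlapped in 1 SDY library. bag5 had -0.27 ± 0.11, dnajc14 -0.15 ± 0.06 and hsp90ab1 -0.19 ± 0.09 (adjusted p = 0.407, 0.426 and 0.46).

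SDY replicates 3 and 4 of head kidney stood apart in a few genes. hspb7 held 1.52, 0.668, 14.4, 10.7 and 1.2 CPM in SDY head kidneys, against 1.53, 0.791 and 1.66 CPM in control head kidneys, and its fold change of 2.13 ± 1.1 did not pass (adjusted p = 0.465, edgeR). hspa4l held 0.0372, 0.0742, 2.66, 1.47 and 0 CPM in SDY head kidneys, against 0.0929, 0.167 and 0.0895 CPM in control head kidneys. The same libraries held the interrenal genes star, hsd3b1, th and dbh, of steroid and chromaffin cells, at a sum of 13, 8.31, 1319, 565 and 10.4 CPM in SDY head kidneys, against 1.86, 5.41 and 4.3 CPM in control head kidneys. Their part in the values of hspb7 and hspa4l was not tested. hspb1 held 2.34, 2.26, 1.3, 4.16 and 1.63 CPM in SDY head kidneys, against 1.21, 1.67 and 1.25 CPM in control head kidneys, with the highest value in SDY replicate 4 (0.77 ± 0.39, adjusted p = 0.464).

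Across tissues, the sign of the diet effect was above 0 in all 3 for 24 of the 69 genes tested in each, against 21.4% of all genes, and below 0 in all 3 for 7, against 19.3%. By role, the genes above 0 in all 3 were 12 of 15 ER folding genes, 5 of 5 genes of the mitochondrial list, both ER degradation genes and 5 of 21 J-domain genes. Genes of a list are not independent of each other, so these counts are no test. The count of ER folding genes above 0 in head kidney depended on control replicate 2 and SDY replicate 5, as given above. It also depended on leaving out control replicate 3, as did the count of the mitochondrial list. Both heat shock factors tested in each tissue, hsf1 and hsf2, were below 0 in all 3. hsf1 held 31.7, 32.1, 44.7, 44.7 and 33.8 CPM in SDY livers, against 53.8, 42, 44.4, 42.5 and 46.4 CPM in control livers (-0.29 ± 0.14, adjusted p = 0.487, edgeR).

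Averaged over the 3 tissues, 0 of 79 genes passed in edgeR (0.0246% of 20296 genes, 5 in all), and 8 of 79 had an unadjusted p under 0.05 against 14.0% of all genes, and DESeq2 called 0 of the set and 416 genes in all. ER folding genes were 14 of 15 above 0, where 53.6% of all genes were above 0. bag5 had the smallest p, at -0.24 ± 0.07 (adjusted p = 0.167). hspa9 followed with 0.37 ± 0.14, dnajc21 with 0.33 ± 0.14 and hsp90b1 with 0.45 ± 0.19 (adjusted p = 0.236, 0.287 and 0.295). dnajc10, dnajc15, dnajc8, creld2 and dnajc7 had 0.18, 0.43, 0.20, 0.47 and -0.17 (log2, adjusted p = 0.318 to 0.393). dnajc6 was also among the 10 smallest p, but it had 0 counts in the 5 SDY livers and 2 in the 5 control livers, so no averaged fold is given for it. Without intestine control replicate 4, the library that stood apart above, 4 genes passed, with adjusted p between 0.0312 and 0.0478 in edgeR. They were hspd1 (0.96), dnajc11 (0.53), hspa9 (0.46) and dnajc2 (0.39). Over all genes, 792 passed without that library against 5 with it, so calls rose far beyond this set. SDY replicate 4 of intestine, which deviated alongside that control, was kept in that fit.

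No difference of the diet effect between tissues passed for these genes. For liver against intestine, dnajb5 came nearest, with 0.555, 2.76, 1.85, 2.36 and 3.26 CPM in SDY livers, against 0.652, 0.885, 0.619, 1.22 and 0.112 CPM in control livers, and 6.98, 10.8, 9.85, 5.4 and 6.32 CPM in SDY intestines, against 10.2, 16.1, 10.6, 7.35 and 15.4 CPM in control intestines. The difference of the log2 fold changes was 2.26 ± 0.55 (adjusted p = 0.411 in edgeR, where 0.00985% of all genes passed), and DESeq2 called it (2.29, adjusted p = 0.034). dnajb5 had at most 32 counts in any liver library and was too low there to be tested in liver alone. An unadjusted p under 0.05 was found for 2 of 79 genes, against 5.82% of all genes. dnajc14 and cct3 followed with -0.35 ± 0.12 and 0.46 ± 0.24 (adjusted p = 0.785 and 0.884).

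For liver against head kidney (0.00985% of all genes passed, 0 of the set, 4 of 79 at an unadjusted p under 0.05 against 6.24%), the smallest p were those of dnajc28 (-0.99 ± 0.38), xbp1 (0.77 ± 0.30) and dnajb5 (1.43 ± 0.61), with adjusted p of 0.658, 0.658 and 0.729 in edgeR. DESeq2 called 0 of the set and 41 genes in all. For intestine against head kidney (0.00493%, 0 of the set, 4 of 79 against 7.05%), they were hspb1 (-1.17 ± 0.40), hspa4l (-3.75 ± 1.33) and hspb7 (-2.63 ± 0.94), with adjusted p of 0.426, 0.451 and 0.456 in edgeR. DESeq2 called 0 of the set and 49 genes in all there.

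Among the 71 other folding genes, 0 passed in any tissue in edgeR. An unadjusted p under 0.05 was found for 8 of 71 in liver, 0 of 71 in intestine and 4 of 70 in head kidney. Of all genes, 10.7%, 6.50% and 11.8% had one in these tissues. DESeq2 called 1 in liver, atf3, and 0 in the other tissues. In liver 50 of 71 lay above 0, in intestine 53 of 71 and in head kidney 41 of 70. The shares over all genes were 49.5%, 48.1% and 53.7%. atf3, a stress-induced transcription factor, came closest, with 103, 64.1, 17.9, 96.5 and 81.2 CPM in SDY livers, against 7.93, 5.61, 6.5, 6.93 and 12.8 CPM in control livers, without overlap (3.18 ± 0.41, adjusted p = 0.108). DESeq2, edgeR without SDY replicate 3 and the fit of all 28 libraries each brought it past the threshold (adjusted p = 2.28e-11, 0.000985 and 0.0117). chac1, which breaks down glutathione and is a target of PERK signalling, held 847, 292, 77.2, 837 and 160.2 CPM in SDY livers, against 34.7, 246, 43.9, 69.5 and 48.5 CPM in control livers (2.31 ± 0.74, adjusted p = 0.365).

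grpel1, the nucleotide exchange factor of hspa9, had 0.70 ± 0.23 in liver and 0.26 ± 0.09 in head kidney (adjusted p = 0.368 and 0.404, edgeR). ganab, which trims sugars of new glycoproteins, and ptges3, the HSP90 co-chaperone p23, had 0.77 ± 0.28 and 0.58 ± 0.21 in liver (adjusted p = 0.387 and 0.39). In intestine the smallest p were those of creb3l1, chac1, ero1a, lman1 and eif2ak3, from -0.36 ± 0.17 to 0.58 ± 0.35 (adjusted p = 0.767 to 0.873). In head kidney sec62, an ER translocation protein, had -0.28 ± 0.08, txndc5 0.46 ± 0.17, lman1 0.29 ± 0.12 and vcp, the ATPase that extracts ER proteins, 0.30 ± 0.14 (adjusted p = 0.404 to 0.439).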

How the data were processed

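The deposited tables hold read counts per gene. They came from featureCounts 1.5.3, per the file headers, which also give its options: mRNA spans grouped by gene symbol, reads over several genes counted in each, and neither strand nor pairing used. The submitters' processing notes name Trim Galore 0.4.4, FastQC, HISAT2 2.1.0 and DESeq2. Per the labels' protocols, libraries came from a directional kit after poly(A) selection. 0 columns were left unmapped. Of the 81 genes, 72 matched a RefSeq gene table of assembly fSpaAur1.1, and coordinates come from the files. No pair of libraries in a group was a duplicate (chi-square per gene at least 19.1).

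For the diet effect, edgeR 4.0.16 in R 4.3.3 was run on the libraries of 1 tissue at a time (filterByExpr, TMM, quasi-likelihood test, SDY over control), with Benjamini-Hochberg adjustment over all genes tested and a threshold of 0.05. Tissue contrasts, the averaged effect and differences of the diet effect came from 1 fit of 28 libraries with 6 group means. That fit treats the libraries as independent. If tissues came from the same fish, its p-values do not allow for it. SE came from the F statistic. Alternatives were DESeq2 1.42.0, DESeq2 size factors in edgeR, no filter, a replicate block, other head kidney libraries and each library left out in turn. The tests were also run on simulated counts with the same spread for every gene and no deviating library. These data differ in both, so that run does not show how the tests behave here.

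The genes and lists were chosen with earlier results of these data known. Named are, per diet comparison, the 10 genes with the smallest p, per tissue contrast the 5 with the greatest fold change in each direction, per difference of effects 3, and 5 other folding genes per tissue. hspa5, canx, creld2, hsp90ab1, hsf1 and further standard genes are given for their levels. Other genes named were chosen after their values were seen. Depth sets the precision: low genes such as hspa12b rest on few counts.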

Additional observations from a re-analysis of the deposited data

Results flagged for a closer look

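Among 105 groups of values screened, 13 had a library far from the others of its group, and chance flags about 1 group in 20. The groups are not independent, as single genes are also part of the sums, so 13 cannot be set against that rate. In intestine, control replicate 4 was low in hspb7 (5.19 CPM, others 7.99 to 8.55) and in hspb1 (7.45 CPM, others 11.8 to 13.4). The same library was high in the sums over ER degradation genes (74.5 CPM, others 48.7 to 56), ER folding genes (2880 CPM, others 1480 to 1660) and the mitochondrial list (455 CPM, others 106 to 172). Control replicate 2 of intestine was high in hspa12a (7.41 CPM, others 4.21 to 5.02).

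In liver, SDY replicate 3 was low in hspa9 (158 CPM, others 263 to 298), in hsp90b1 (1050 CPM, others 4580 to 4860), in the ER folding sum (4990 CPM, others 16900 to 19100) and in the J-domain sum (472 CPM, others 559 to 593). SDY replicate 4 was high in dnajc7 (18.5 CPM, others 15 to 16). Control replicate 1 was high in the sum of heat shock factors (74.8 CPM, others 58.4 to 62), and control replicate 5 in the sum of BAG genes (249 CPM, others 194 to 207).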

How the results depend on the processing

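Counts of genes of the set past the threshold stayed at 0 for each diet effect with edgeR under other size factors, no filter, the replicate block and the fit of 28 libraries. DESeq2 gave 1 in liver (hspa9) and 1 in the difference of liver and intestine (dnajb5). With all head kidney libraries, dnajc22 alone passed in the averaged diet effect (1, at -2.38) and in the diet effect difference of liver and head kidney (1, at 7.66) and of intestine and head kidney (1, at 7.14). With control replicate 1 alone left out it passed in the averaged effect (1, at -2.39) and in the difference of liver and head kidney (1, at 7.68). Control replicate 3 of head kidney, used there, held 277 counts of it. Leaving out each library in turn gave 0 to 4 in the averaged effect, with 4 without intestine control replicate 4, 62 to 70 in the tissue contrast of liver and intestine, 57 to 67 in that of liver and head kidney, 43 to 51 in that of intestine and head kidney and 0 to 0 elsewhere. No called tissue difference of the set reversed, and 62 to 66 of 66, 54 to 65 of 65 and 40 to 47 of 47 calls were kept. Each of these settings used TMM or DESeq2 size factors, so they do not test the calls that rest on scaling between tissues. In head kidney, the diet effect turned its sign with all libraries for hsp90ab1 (0.199), hsp90b1 (-0.126), hspb1 (-0.128), lman1 (-0.47), pdia4 (-0.039) and xbp1 (0.01). With control replicate 1 alone left out it turned for hsp90b1 (-0.267), hspb1 (-0.12), lman1 (-0.483) and pdia4 (-0.131). Adjusted p was between 0.633 and 0.998 in these, and the cause was not tested. Same-numbered libraries did not deviate together in every pair (correlations from -0.131 to 0.544 between diets and from -0.129 to 0.205 between tissues). The numbers were therefore not taken to pair samples, but these values cannot show whether tissues came from the same fish. The replicate block gave 0 genes of the set in each diet comparison and 67, 61 and 47 in the 3 tissue contrasts. Over all genes, DESeq2 called 103 in liver, 55 in intestine, 248 in head kidney and 416 in the averaged effect, against 0, 0, 1 and 5 in edgeR, and the fit of 28 libraries called 29 in liver. In differences of the diet effect DESeq2 called 21, 41 and 49 genes, against 2, 2 and 1 in edgeR. The averaged effect gave 19 genes with the block, 570 with all head kidney libraries and 0 to 792 with a library left out. Limits: shallow libraries and low counts limit hspa12b, hspa4l, dnajb4 and, in liver, dnajb5.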

Other observations

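The sum of the 6 BAG genes in head kidney was 78.6, 78.1, 77.4, 72.5 and 75.9 CPM in SDY libraries, against 86.4, 83.3 and 81.3 CPM in control libraries, without overlap, and no BAG gene passed there. Of all genes, 3.45% were lower without overlap in head kidney, bag4 among them. Genes with more counts weigh more in such a sum. bag3 had a log2 fold change of 0.41 ± 0.29 (adjusted p = 0.567, edgeR), on 2.57, 1.56, 2.66, 2.62 and 1.85 CPM in SDY libraries, against 1.998, 1.17 and 1.92 CPM in control libraries.

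dnajb13, a J-protein of cilia and sperm tails in mammals that was too low to be tested, held 0.0744, 0.0742, 1.16, 0.753 and 0.109 CPM in SDY head kidneys, against 0.0929, 0.0416 and 0.0895 CPM in control head kidneys. The high values were in SDY replicates 3 and 4, the libraries with the interrenal genes.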
